A study of Mus musculus with 6 samples.

Results

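Chemokines are small secreted proteins that direct the movement of blood cells, and the genes described here encode 28 of them and 15 of their receptors. The 43 genes were taken by name. Any region of open chromatin in the RefSeq span of a member on mm10, or at most 20 kb outside it, was assigned to the group, and each region was counted once. This gave 193 of 75961 regions, in 29 separate windows, since neighbouring genes of a cluster share regions. There were 94 regions near ligand genes and 99 near receptor genes, with no region near both.

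Chemokine receptors are membrane proteins that signal through G proteins and steer cells up a gradient of ligand. In bone marrow, Cxcl12 made by stromal cells holds stem and progenitor cells in place through Cxcr4, whereas ligands of Cxcr2 draw neutrophils out into the blood. Most other members act in inflammation or in the homing of lymphocytes, and many ligand genes lie in clusters of close copies.

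Open chromatin was mapped by ATAC-seq, in which a transposase cuts and tags accessible DNA, in lineage-depleted bone marrow cells, a mixed population rich in haematopoietic stem and progenitor cells. All mice were of the C57BL/6 strain. The 3 wild-type samples carried intact Utx (label UTX_WT) and the 3 knockout samples lacked Utx, a histone demethylase gene also called Kdm6a (label UTX_KO), and no treatment is named for either group. Each sample has 1 list of peaks with coordinates alone, so a peak is either present or absent, its width is the only other measure, and read depth is unknown. The labels number the samples within a genotype but do not tie them to separate animals, and the sources used here give no age, sex or deleted part of Utx. The p-values below measure only the spread between these samples. In a mixed population, fewer cells with an open site and less opening per cell cannot be told apart.

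Wild-type lists held 57405 to 57917 peaks and knockout lists 44576 to 50249, a mean difference of -19.0%. Near Kdm6a there were 4, 5 and 5 peaks in wild type and 6, 6 and 5 in knockout, which does not check the deletion. Of 10 stem and progenitor marker genes, 8 had a peak in or within 1 kb in every sample, and Ly6a had none in any. Peaks at 8 B lymphoid marker genes numbered 11 to 17 per sample in wild type and 34 to 36 in knockout, and at 8 erythroid marker genes 21 to 27 and 7 to 9. Neutrophil and monocyte markers had 16 to 18 and 9 to 13 peaks (Ly6g and Ly6c2 had none in any sample), T and NK markers 5 to 6 and 3 to 5 (Cd3e, Cd4, Cd8a and Ncr1 had none), and stromal and endothelial markers 39 to 42 and 28 to 33 (Cdh2 had none).

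RefSeq promoter windows, 250 bases before to 50 after a transcription start on GRCm38.p6 (the assembly of mm10), were found for 31 of the 43 genes. The genes without a window were Ccl2, Ccl4, Ccl5, Ccl7, Ccl11, Ccl24, Cxcl5, Cxcl11, Cxcl16, Ccr7, Ccr10 and Cxcr5. Printed here are the 250 bases before the start for the 2 genes whose window had a peak in at least 2 more samples of one genotype than of the other, and for Cxcr4, which carries the most gained regions below. They lie at chr11:82101595-82101844 on the plus strand (Ccl12, a monocyte attractant), chr5:90903649-90903898 on the plus strand (Cxcl2, a neutrophil attractant) and chr1:128592300-128592549 on the minus strand (Cxcr4). Capitals mark TATAAA, the core of a TATA box, in Ccl12 and Cxcr4, and in Cxcl2 a match to GGGANNTTC, a core of NF-kB sites. Each capital stretch covers matches on either strand, which overlap in Cxcl2 and Cxcr4.
Ccl12: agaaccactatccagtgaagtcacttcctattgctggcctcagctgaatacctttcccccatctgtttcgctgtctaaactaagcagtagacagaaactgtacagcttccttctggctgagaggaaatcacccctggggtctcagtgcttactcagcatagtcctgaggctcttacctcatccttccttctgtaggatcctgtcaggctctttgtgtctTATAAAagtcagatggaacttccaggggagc
Cxcl2: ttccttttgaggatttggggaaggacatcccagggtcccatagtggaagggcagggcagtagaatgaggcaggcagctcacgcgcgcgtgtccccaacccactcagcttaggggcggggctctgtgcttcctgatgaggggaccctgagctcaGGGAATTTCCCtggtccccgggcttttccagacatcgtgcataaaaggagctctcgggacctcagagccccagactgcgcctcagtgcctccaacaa
Cxcr4: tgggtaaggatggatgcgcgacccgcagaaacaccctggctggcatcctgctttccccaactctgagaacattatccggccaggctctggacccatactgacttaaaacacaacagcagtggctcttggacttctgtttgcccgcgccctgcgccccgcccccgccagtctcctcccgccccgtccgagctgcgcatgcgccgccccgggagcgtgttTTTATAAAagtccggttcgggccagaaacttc

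In the 250 bases before the start, GGGANNTTC on either strand was found in 7 of 33 windows of members (some have more than 1) (21.2%) and in 3.23% of all 32851 windows in the table. The 7 were those of Cxcl1, Cxcl2, Cxcl3, Cxcl9, Cxcl10, Ccr3 and Cxcr2. TATAAA was found in 10 of 33 (30.3%) against 12.4%. The ETS core CCGGAA was in 2 of 33 member windows and 3952 of all 32851, while the core bound by GATA factors, AGATAA, was in 15.2% and 9.99%. The remaining letters searched on both strands were GAGGAAGT for PU.1 (3.03% against 2.44%), TGTGGT for RUNX (8 of 33 against 4614 of 32851), TTGCNNAA for C/EBP (6.06% against 9.56%), GAAANNGAA for interferon-stimulated elements (12.1% against 7.13%) and TGANTCA for AP-1 (12.1% against 6.75%). A match describes letters in this window and not binding.

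Promoter windows of chemokine genes had overlapping numbers of peaks in the 2 genotypes. Of the 31 members with a window, 12, 11 and 11 had a peak there in wild-type samples 1, 2 and 3 and 11, 11 and 10 in knockout samples 1, 2 and 3. The groups overlapped (two-sided exact permutation p = 0.6). Of all 17492 protein-coding genes with a window, 53.7% had a peak there in wild type and 53.4% in knockout. These groups overlapped too (exact permutation p = 0.5). With the widest 50% of each sample's peaks the mean difference in members was -1.67 in place of -0.667, and the groups no longer overlapped (exact permutation p = 0.1). Peaks were present in all 6 samples at Ccl3, Ccl25, Cxcl10, Ccr1, Cxcr3, Cxcr4 and Cx3cr1, and in no sample at 17 members. The Ccl12 window had a peak in 3 of 3 wild-type samples and only in knockout sample 3. At Cxcl2 the window was reached by a peak in knockout samples 1 and 3 alone. The merged region that overlaps this window had a peak in all 6 samples. Merging can join peaks that do not overlap each other, so whether these peaks are the same site was not tested.

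Across all 43 genes, fewer peaks were called in the knockout. There were 148, 153 and 133 peaks near them in wild-type samples 1, 2 and 3 and 119, 123 and 103 in knockout samples 1, 2 and 3. Every knockout value lay below every wild-type value, with means of 145 ± 10.4 and 115 ± 10.6 (SD, n = 3 each), a difference of -20.5% (two-sided exact permutation p = 0.1, the smallest that 3 samples against 3 allow). As a share of each list the peaks made up 0.251% ± 0.0177 in wild type and 0.246% ± 0.0160 in knockout (n = 3 each), and here the groups overlapped (exact permutation p = 0.8). With the widest 50% of peaks the share differed by -0.0291 percentage points without overlap (exact permutation p = 0.1), in place of -0.00468. The bases covered by peaks were 64.4 ± 3.16 kb and 50.9 ± 3.74 kb (n = 3 each, exact permutation p = 0.1). When only the 44576 widest peaks of a sample were kept, so that all lists had one length, the mean number of peaks near chemokine genes was 0.333 higher in knockout (exact permutation p = 1).

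Ligand and receptor genes differed in how far they followed this. Near the 28 ligand genes lay 73, 77 and 69 peaks in wild type and 54, 53 and 42 in knockout, with no overlap and a difference of -32.0% (exact permutation p = 0.1). Near the 15 receptor genes lay 75, 76 and 64 peaks in wild type and 65, 70 and 61 in knockout, which overlapped (-8.84%, exact permutation p = 0.3). The number of ligand peaks over the number of receptor peaks was 1.02 ± 0.0529 in wild type and 0.759 ± 0.0711 in knockout (n = 3 each). All 3 knockout ratios, 0.831, 0.757 and 0.689, lay under the wild-type ratios of 0.973, 1.01 and 1.08, again at the smallest exact permutation p of 0.1. This ratio was chosen after the values of both groups were seen. Without Cxcr4, an alternative chosen after seeing the data, receptor peaks numbered 67, 70 and 60 in wild type and 52, 59 and 49 in knockout. These did not overlap (-18.8%, exact permutation p = 0.1), so the overlap for all 15 receptor genes rested on Cxcr4. The whole lists differed by -19.0%. Without Cxcr4 the receptor difference was thus -12.3 peaks in place of -6.33, and that in the ratio was -0.182 in place of -0.263. At equal list length the ligand difference was -6 peaks in place of -23.3, and the groups overlapped (exact permutation p = 0.3). The receptor difference then turned to 6.33 more peaks in knockout, and the ratio differed by -0.195 (exact permutation p = 0.2 and 0.1).

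**Figure D1:**
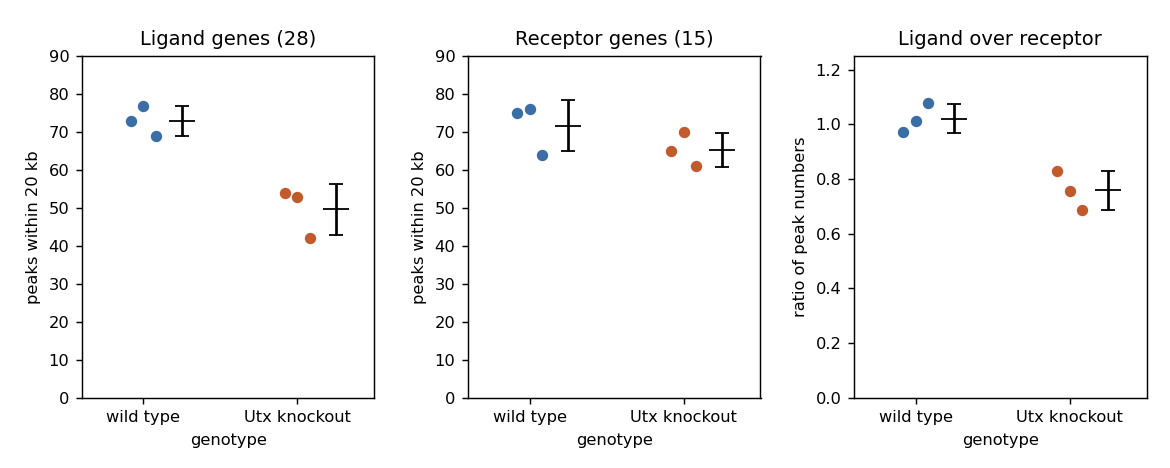
Numbers of ATAC peaks within 20 kb of the 28 ligand genes (left) and the 15 receptor genes (middle), and their ratio (right), by genotype. Points are the 3 samples of each genotype, and the bar beside them is the mean ± SD. Ligand peaks (69 to 77 against 42 to 54) and the ratio do not overlap between the genotypes, whereas receptor peaks do. Without Cxcr4, which is not drawn separately, receptor peaks do not overlap either (60 to 70 against 49 to 59).

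Regions were classed by presence: lost, with a peak in all 3 wild-type and no knockout sample, or gained, the reverse. Near chemokine genes 19 of 193 regions (9.84%) were lost, where 10.7% of the 62098 regions within 20 kb of any protein-coding gene were. Gained regions numbered 9 (4.66%, against 4.05% near all protein-coding genes), and 72 (37.3%, against 42.9%) had a peak in all 6 samples. The 43 genes as a whole were thus close to the background in both directions. All 9 gained regions lay near receptor genes (9 of 99 regions, 9.09%) and 0 of 94 near ligand genes, while 7 ligand regions (7.45%) and 12 receptor regions (12.1%) were lost. Without Cxcr4, 4 of 85 receptor regions (4.71%) were gained, which is near the background. At equal list length, 5.56% of chemokine regions were lost and 7.41% gained, against 7.43% and 6.41% near all protein-coding genes, and the gained ones were 11 of 85 receptor and 1 of 77 ligand regions.

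By family, CC ligand genes had 1 lost (1.72%) and 0 gained of 58 regions. CXC and CX3C ligand genes had 6 lost (15.8%) and 0 gained of 38, and 4 of the 6 lay near Cx3cl1. CC receptor genes had 9 lost (17.3%) and 2 gained (3.85%) of 52. CXC, CX3C and atypical receptor genes had 3 lost (6%) and 7 gained (14%) of 50, the 7 being 5 near Cxcr4 and 2 near Cxcr5. Near all protein-coding genes 10.7% were lost and 4.05% gained. A few regions lie near members of 2 families. Of the 14 regions over a promoter window, none was lost or gained and 8 had a peak in all 6 samples. The same shares over promoter windows of all genes were not computed, so these counts have no background to be read against. Only 31 of the 43 genes have a window. Ccr7, Cxcr5 and Ccr10 have none, so starts of these receptor genes could not be counted. Of the lost regions, 3 lay inside a member, 8 between genes and 8 inside another protein-coding gene, so that their nearness to the chemokine gene is one of position only. Gained regions lay inside a member (3) or between genes (6). Lost chemokine regions were narrow, with a median wild-type width of 334 bp, and all lost regions near protein-coding genes had 365 bp.

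**Figure D2:**
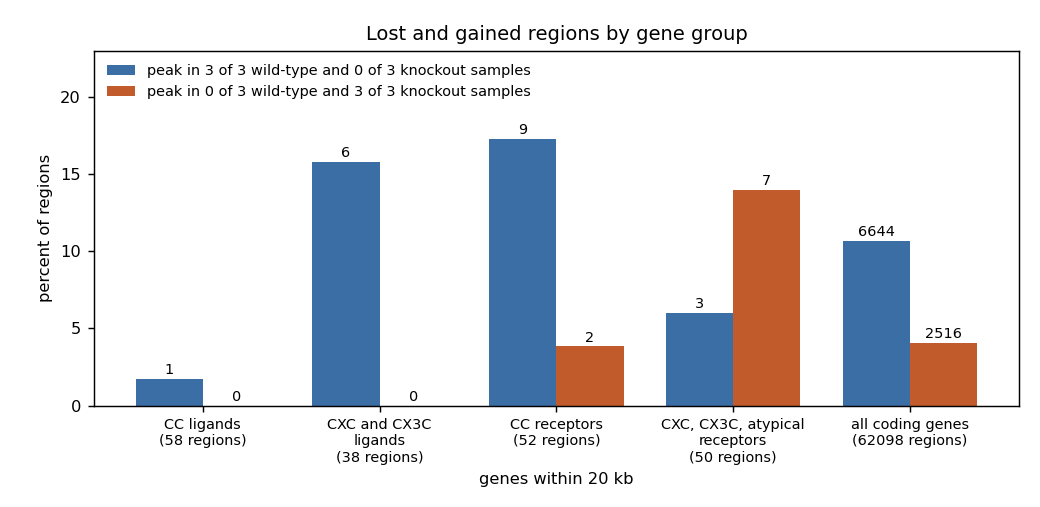
Percent of regions within 20 kb that were lost (blue) or gained (orange) in Utx knockout, for 4 families of chemokine and receptor genes and for all protein-coding genes. Numbers above the bars are regions. CC receptor genes have the highest lost share of the 4 families (9 of 52 regions) and CXC, CX3C and atypical receptors the highest gained share (7 of 50). Of these 7 gained regions, 5 lie near Cxcr4.

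Per gene, the number of peaks was lower in every knockout sample than in every wild-type sample for 13 of 43 members (30.2%), where 21.4% of the 21887 protein-coding genes showed this. It was higher in every knockout sample for 2 members (4.65%, against 3.29%), Ccr7 and Cxcr4. Counted as bases covered by peaks, 21 members were lower (48.8%, against 38.3%) and 3 higher (6.98%, against 7.68%), the third being Ccr9, the receptor of Ccl25. Members of a cluster share peaks and are not independent. For a single gene the exact permutation p of such a separation is 0.1, and no gene can pass an adjusted threshold. In 32 members a peak was present in all 6 samples, 8 had peaks in only some samples, and Ccl20, Cxcl13 and Cxcl14 had none in any.

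**Figure D3:**
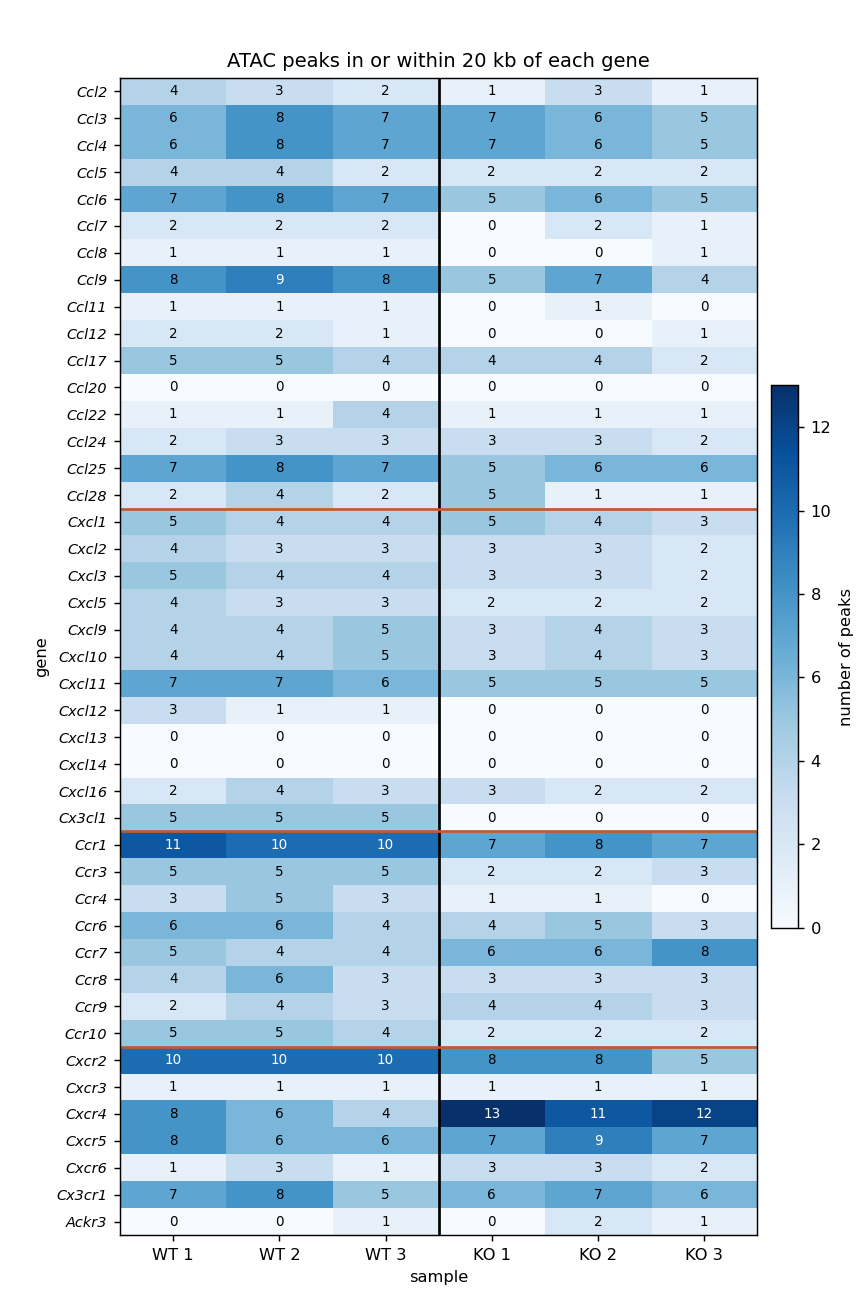
Number of ATAC peaks in or within 20 kb of each of the 43 genes (rows) in each sample (columns), printed in the cells and shown by colour. The black line divides wild type (WT) from Utx knockout (KO), and orange lines divide CC ligands, CXC and CX3C ligands, CC receptors, and CXC, CX3C and atypical receptors. Cx3cl1 goes from 5 peaks in each wild-type sample to 0 in each knockout sample, and Cxcr4 from 4 to 8 peaks to 11 to 13.

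Among the ligands, Cx3cl1 stood apart. Cx3cl1 encodes fractalkine, a chemokine tethered to the cell surface that binds Cx3cr1, and lies on chromosome 8 at 94772180 to 94782427. It had 5, 5 and 5 peaks in wild type and 0, 0 and 0 in knockout, covering 1553, 1736 and 2110 bases in the wild-type samples. Of its 6 regions 4 were lost, 2 inside the gene (94778504 to 94778829 and 94779150 to 94779445) and 2 beyond its far end, 3248 and 5025 bp away. The last of these, at 94787452 to 94788416, was the widest, with 693, 944 and 965 bp in wild-type samples 1, 2 and 3. At equal list length 2 regions were lost, and with the widest 50% of peaks 1 did. Another region, 1067 bp before the gene, had a peak in wild-type sample 3 only. The last sits on the edge of the window and had a peak in all 6 samples, but only those of wild-type samples 1 and 2 reached into the window. Stromal and endothelial marker genes, whose cells are known to make fractalkine, had 39 to 42 peaks in wild type and 28 to 33 in knockout. Of these 8 genes, 7 had a peak in each sample but knockout sample 1, where 6 did. Their part in this result was not tested.

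Ccl17 and Ccl22, ligands of Ccr4, flank Cx3cl1. Ccl17 had 5, 5 and 4 peaks in wild type and 4, 4 and 2 in knockout, which overlapped, and lost 1 of 5 regions, inside the neighbouring gene Ciapin1. Ccl22 had 1, 1 and 4 peaks and 1, 1 and 1, so that wild-type sample 3 alone was high. The receptor gene Ccr4, on chromosome 9, had 3, 5 and 3 peaks in wild type and 1, 1 and 0 in knockout. It lost 1 of 5 regions, inside the gene at 114502606 to 114503303 (669, 441 and 672 bp wide in wild type), and at equal list length the difference was -1 peak in place of -3. Covered bases near Ccr4 were 1319 ± 70.0 (SD, n = 3) for wild type and 182 ± 167 (SD, n = 3) for knockout. Peak numbers at Ccr4 did not overlap between the genotypes.

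Cxcl12, the main retention signal for progenitors in marrow and the ligand of Cxcr4 and Ackr3, had 3, 1 and 1 peaks in wild type and 0, 0 and 0 in knockout. None of its 3 regions had a peak in more than 2 samples, and their peaks were 199 to 298 bp wide, close to the smallest width in any list (199 bp). No peak reached its promoter window. The separation rests on these few narrow peaks, and at equal list length the difference was -0.333 in place of -1.67. Ackr3, a scavenger of Cxcl12, had 0, 0 and 1 peaks in wild type and 0, 2 and 1 in knockout.

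Neutrophil attractants that act through Cxcr2 lie in a cluster on chromosome 5. Cxcl3 had 5, 4 and 4 peaks in wild type and 3, 3 and 2 in knockout, and Cxcl5 4, 3 and 3 against 2, 2 and 2, both without overlap. They share 1 lost region (90772109 to 90772606), which lies inside Pf4, the platelet factor 4 gene. It is outside 10 kb windows of both genes. With such windows the difference was -0.667 peaks at Cxcl3 in place of -1.67, and -0.333 at Cxcl5 in place of -1.33. A region in all 6 samples at 90775380 to 90776121 was narrower in every knockout sample, at -0.95 on the log2 scale of peak width. Cxcl1, with 5, 4 and 4 peaks in wild type and 5, 4 and 3 in knockout, and Cxcl2, with 4, 3 and 3 against 3, 3 and 2, overlapped between genotypes and had no lost or gained region.

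Ligands of Cxcr3 that respond to interferon, Cxcl9 and Cxcl10, had 4, 4 and 5 peaks in wild type and 3, 4 and 3 in knockout at each gene, and these overlapped. The neighbouring Cxcl11, which is annotated as a transcribed pseudogene in this reference strain, had 7, 7 and 6 peaks in wild type and 5, 5 and 5 in knockout. Its lost region at 92369109 to 92369390 lies inside Art3 and was 216 to 282 bp wide in wild type. Cxcr3 itself, on chromosome X, had 1 peak in every sample, over its promoter window. That peak was 738, 744 and 686 bp wide in wild type and 467, 658 and 545 bp in knockout, so it was narrower in every knockout sample.

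CC ligand genes on chromosome 11 had 0 lost regions. Ccl6 and Ccl9, chemokines made by myeloid cells, had 7, 8 and 7 and 8, 9 and 8 peaks in wild type and 5, 6 and 5 and 5, 7 and 4 in knockout, with no lost or gained region among the 11 near either gene. Peak numbers did not overlap at either gene, and 2 regions near both were narrower in every knockout sample. Ccl3 and Ccl4, attractants of monocytes and T cells, have overlapping spans and the same 8 regions, with 6, 8 and 7 peaks in wild type and 7, 6 and 5 in knockout. The Ccl3 promoter region was 816, 769 and 823 bp wide in wild type and 638, 729 and 592 bp in knockout. Ccl5 had 4, 4 and 2 peaks against 2, 2 and 2. The cluster of Ccl2, Ccl7, Ccl8, Ccl11 and Ccl12, which attract monocytes and eosinophils, had 6, 5 and 3 peaks in all in wild type and 1, 3 and 2 in knockout, and none of its 7 regions had a peak in all 6 samples.

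Ccl25, which guides cells to thymus and gut through Ccr9, had 7, 8 and 7 peaks in wild type and 5, 6 and 6 in knockout. It had no lost or gained region among 8. Its promoter region, which also overlaps the neighbouring gene Elavl1, was 1822, 1548 and 1650 bp wide in wild type and 1055, 1102 and 1328 bp in knockout. A region inside Ccl25 at 4347680 to 4348624 was wider in every knockout sample (1.05 on the log2 scale). Regions inside Elavl1 at 4305692 to 4306091 and 4319482 to 4319686 had a peak only in wild-type sample 1 and only in wild-type sample 2, in that order. Ccl28 had 2, 4 and 2 peaks against 5, 1 and 1, Ccl24 2, 3 and 3 against 3, 3 and 2, and Cxcl16 2, 4 and 3 against 3, 2 and 2, all overlapping.

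Among receptor genes, 8 had lost regions, namely 6 CC receptor genes, Cxcr2 and Cxcr4. At equal list length Ccr3, Ccr4, Ccr6 and Cxcr4 had 0 lost regions, as had the ligand genes Ccl17 and Cxcl11. With 10 kb windows Ccr8, Cxcr2 and Cxcr4 had 0 lost regions, as had the ligand genes Ccl17, Cxcl3 and Cxcl5. Ccr1, a receptor of Ccl3 and Ccl5 on monocytes and neutrophils, had 11, 10 and 10 peaks in wild type and 7, 8 and 7 in knockout. It lost 2 of 11 regions, at 123957794 to 123958749, beyond the gene's far end (725, 926 and 866 bp wide in wild type), and at 123981697 to 123982248 inside the neighbouring receptor-like gene Ccr1l1. Its promoter peak remained in all 6 samples, 618, 656 and 717 bp wide in wild type and 621, 643 and 606 bp in knockout. Ccr3, the eotaxin receptor of eosinophils, had 5, 5 and 5 peaks in wild type and 2, 2 and 3 in knockout, and lost 2 of 5 regions, 2241 and 1386 bp outside the gene. Eosinophil, basophil and mast cell markers had 5, 4 and 6 peaks in wild type and 6, 3 and 2 in knockout, with Epx at 0 in every sample, and their part was not tested. The difference at Ccr3 at equal list length was -0.667 peaks in place of -2.67, and with the widest 50% of peaks it was 0.

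Cxcr2, the receptor that draws neutrophils towards Cxcl1 and Cxcl2, had 10, 10 and 10 peaks in wild type and 8, 8 and 5 in knockout. Of its 11 regions 2 were lost, 1 of them inside Rufy4 and 1 between genes, 11511 bp away. Another 3 regions with a peak in all 6 samples were narrower in every knockout sample, by -0.66 to -0.79 on the log2 scale. The bases covered near Cxcr2 were 3709 ± 236 (SD, n = 3) for wild type and 1919 ± 469 (SD, n = 3) for knockout. With 10 kb windows the difference in peaks at Cxcr2 was -0.667 in place of -3. Neutrophil and monocyte marker genes had 16 to 18 peaks in wild type and 9 to 13 in knockout, with 6 of 8 having a peak in each sample but knockout sample 3 (4 of 8), and their part was not tested.

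**Figure D4:**
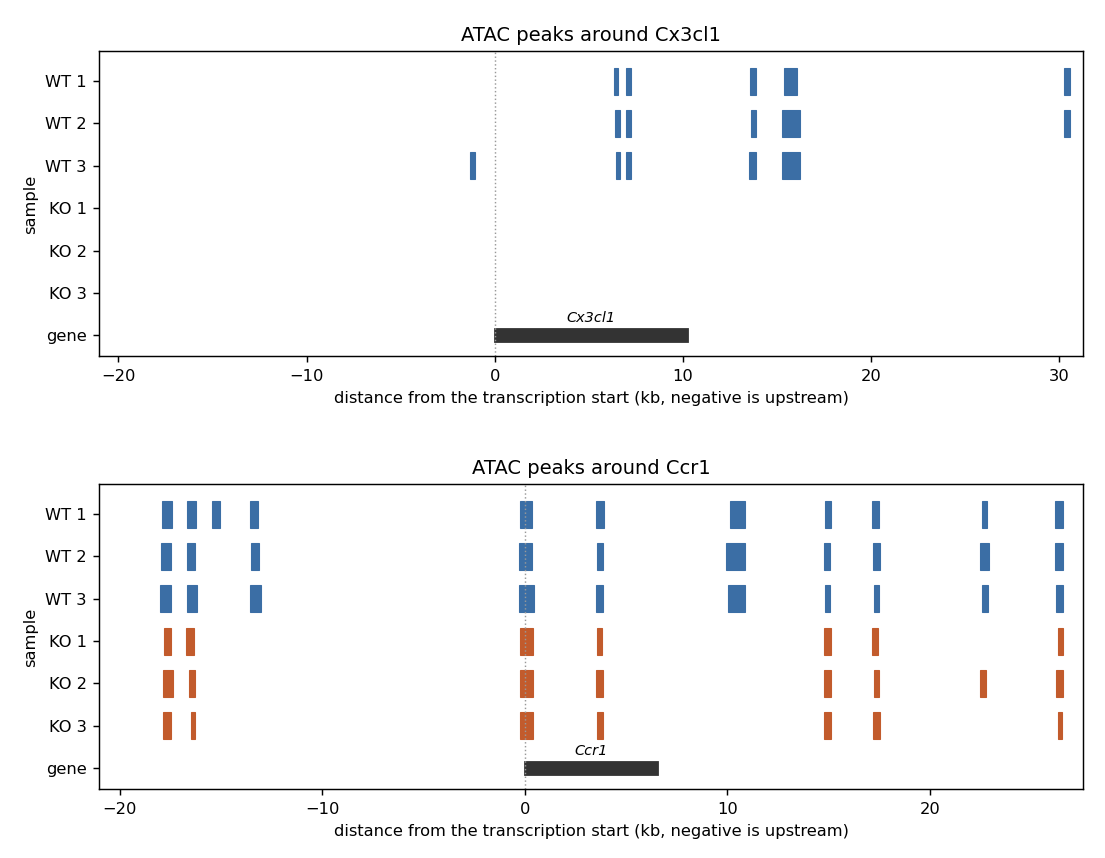
Peaks in each sample within 20 kb of Cx3cl1 (top) and Ccr1 (bottom), placed by distance in kb from the transcription start, with the gene as a dark bar. Blue is wild type and orange Utx knockout. All peaks near Cx3cl1 are in wild-type samples, while at Ccr1 the promoter peak is present in all 6 samples and 2 regions with a peak in each wild-type sample have none in knockout.

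Cx3cr1, the fractalkine receptor of monocytes, had 7, 8 and 5 peaks in wild type and 6, 7 and 6 in knockout, which overlapped, and no lost or gained region of 9. Without wild-type sample 3, 1 of its regions was lost. Its promoter region was narrower in every knockout sample, at 456, 572 and 467 bp against 790, 816 and 730 bp. Ccr8, a receptor of regulatory T cells next to Cx3cr1, had 4, 6 and 3 peaks against 3, 3 and 3 and 1 lost region, inside Slc25a38, a mitochondrial carrier gene of haem synthesis. A wider region of Slc25a38 that crosses the edge of the window was 1984, 1939 and 2051 bp wide in wild type and had a peak of 278 bp in knockout sample 1 only. Ccr10, the Ccl28 receptor of plasma cells and skin-homing T cells, had 5, 5 and 4 peaks in wild type and 2, 2 and 2 in knockout. Both of its lost regions lie inside the neighbouring gene Cntnap1. Ccr6, the receptor of Ccl20, had 6, 6 and 4 peaks against 4, 5 and 3 and lost 1 of 6 regions, 1906 bp outside the gene. The Ccr6 difference at equal list length was 0.333 peaks in place of -1.33.

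Gained regions lay near 3 receptor genes, Cxcr4, Ccr7 and Cxcr5. Cxcr4, the Cxcl12 receptor that keeps progenitors and developing B cells in the marrow, lies on chromosome 1 at 128588199 to 128592299. It had 8, 6 and 4 peaks in wild type and 13, 11 and 12 in knockout, so every knockout sample was higher although the knockout lists were shorter. Peaks covered 6283, 5492 and 5240 bases in wild type and 8252, 8525 and 10368 in knockout, again without overlap. Of its 14 regions 5 were gained, 1 was lost and 3 had a peak in all 6 samples.

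Of the gained Cxcr4 regions, 3 form a group upstream of the promoter sequence printed above, 8996, 9744 and 10511 bp from the gene, at 128601295 to 128601810, 128602043 to 128602540 and 128602810 to 128603380. Their peaks were 341 to 571 bp wide. Another lay inside the gene (128589313 to 128590180) and the last 4549 bp past its far end. Further upstream, 15307 bp from the gene, a region with a peak in every sample was 695, 724 and 643 bp wide in wild type and 1079, 1817 and 1792 bp in knockout, the largest widening among the 7 chemokine regions that were wider in every knockout sample. In knockout sample 1 this width sums separate peaks, at -16.331 to -15.586 and -17.04 to -16.706 kb from the transcription start. The promoter region did not follow: it was 2895, 3088 and 2951 bp wide in wild type and 3059, 3062 and 3058 bp in knockout. The lost region, 279 to 385 bp wide in wild type, lay 12736 bp past the far end.

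**Figure D5:**
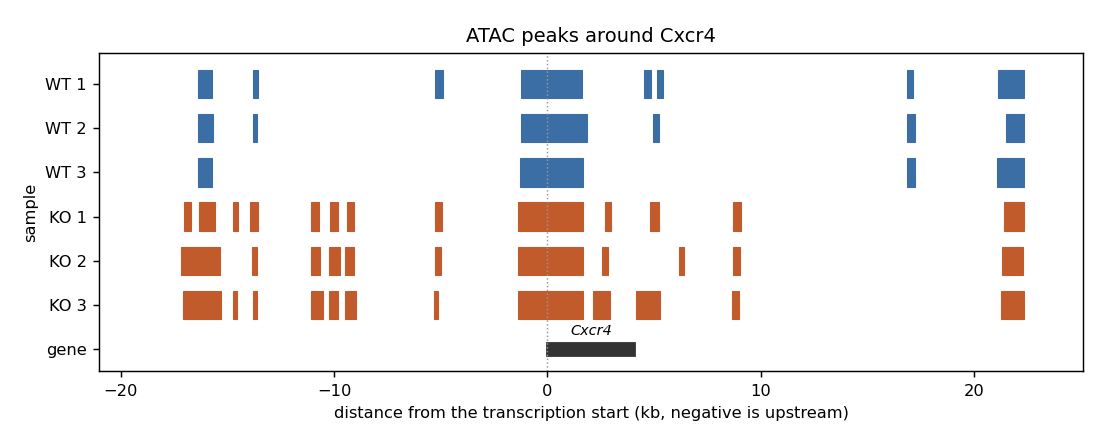
Peaks in each sample within 20 kb of Cxcr4, placed by distance in kb from the transcription start, with the gene as a dark bar. Blue is wild type and orange Utx knockout. The promoter peak has about the same width in all 6 samples, and 3 upstream regions have peaks only in the 3 knockout samples.

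Ccr7, which brings naive T cells and dendritic cells to lymph nodes, had 5, 4 and 4 peaks in wild type and 6, 6 and 8 in knockout. It gained 2 of 10 regions, on chromosome 11 at 99132409 to 99132779 and 99170746 to 99171267, and 2 more regions were wider in every knockout sample, by 0.43 and 0.60 on the log2 scale. The bases covered were 1505 ± 224 (SD, n = 3) for wild type and 2859 ± 546 (SD, n = 3) for knockout. Both gained regions lie more than 10 kb from the gene and are outside a window of that size.

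Cxcr5, the Cxcl13 receptor that leads B cells into follicles, gained 2 of 10 regions. They lay on chromosome 9 at 44521953 to 44522258, inside the gene, and at 44526228 to 44526780, across an annotated end of it. Its peak numbers overlapped, with 8, 6 and 6 in wild type and 7, 9 and 7 in knockout, as did the covered bases. Ccr9 had 2, 4 and 3 peaks against 4, 4 and 3, and 955 to 1275 covered bases in wild type against 1296 to 1702 in knockout. A region of Ccr9 at 123762811 to 123763451 was wider in every knockout sample (1.04 on the log2 scale). Cxcr6, a receptor of T and NK cells, had 1, 3 and 1 peaks against 3, 3 and 2.

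Beside these gains, B lymphoid marker genes had 17, 15 and 11 peaks in wild-type samples 1, 2 and 3 and 34, 36 and 34 in knockout samples 1, 2 and 3, with 5 to 6 of 8 genes having a peak in wild type and 7 to 8 in knockout. T and NK markers had 5, 6 and 5 peaks and 4, 3 and 5, with Cd3e, Cd4, Cd8a and Ncr1 at 0 in every sample. The part of B lymphoid cells in the gains near Cxcr4, Ccr7 and Cxcr5 was not tested. Gained regions near Cxcr4 numbered 5 to 6 when any single sample was left out and 5 at equal list length, but 0 with the widest 50% of peaks. With the widest 50% of peaks Cxcr5 also had 0 gained regions and Ccr7 still 2. Within 50 kb of Cxcr4 the difference in peaks was 3.33 in place of 6, with 6 gained and 4 lost regions.

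Peak width in the 72 chemokine regions with a peak in all 6 samples was somewhat smaller in knockout. The median change was -0.19 on the log2 scale, against -0.11 in the 26641 such regions near protein-coding genes. Width was lower in every knockout sample in 22 of the 72 (30.6%, against 27.7%) and higher in 7 (9.72%, against 11.9%). The mean log2 width was 8.97 ± 0.0691 (SD, n = 3) for wild type and 8.81 ± 0.0840 (SD, n = 3) for knockout (exact permutation p = 0.1). Over all such regions near protein-coding genes it was 9.38 ± 0.0111 and 9.29 ± 0.0568 (SD, n = 3 each), with the same exact permutation p = 0.1. The 7 wider regions were near Cxcr4, Ccr7 (2), Cxcr5, Ccr9, Ccl25 and Cxcl11.

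The other genes of the pathway were taken as a list of 39, made up of 15 further ligands and receptors and 24 genes of chemokine signalling. Their 369 regions included 31 lost (8.40%) and 11 gained (2.98%), both somewhat under the background of 10.7% and 4.05%. Peak numbers were lower in every knockout sample for 12 of the 39 genes (30.8%, against 21.4% of all protein-coding genes) and higher in 0 (against 3.29%). By bases covered, 22 of the 39 were lower (56.4%, against 38.3%) and 3 higher (7.69%, against 7.68%), namely Grk2, Rgs1 and Rgs2. The pathway list overlaps the members' surroundings, and outside the 193 chemokine regions it had 358 regions with 29 lost. The 11 gained regions all lay near signalling genes. Ackr1, the Duffy antigen receptor that binds chemokines on red cells, had 7, 6 and 6 peaks in wild type and 2, 2 and 1 in knockout and lost 3 of 6 regions. Erythroid marker genes had 21 to 27 peaks in wild type and 7 to 9 in knockout, with 8 of 8 and 5 of 8 genes having a peak, and their part was not tested.

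Among signalling genes, Prex1, a Rac activator of neutrophils, lost 6 of 27 regions, with 21, 22 and 20 peaks in wild type and 15, 15 and 16 in knockout. Arrb1, a beta-arrestin that turns receptors off, lost 3 of 14 (12, 9 and 12 peaks against 5, 5 and 5), and Grk3, a receptor kinase, 2 of 9 (8, 8 and 8 against 5, 6 and 4). Dock2, a Rac activator of lymphocytes, lost 3 and gained 1 of 19, with 12, 12 and 11 peaks against 8, 10 and 9. Elmo1, a partner of Dock2, gained 7 and lost 4 of 43 regions, and its peak numbers overlapped at 29, 27 and 26 against 25, 31 and 26. Ptk2b, a kinase of migrating cells, lost 2 of 31, with 26, 25 and 28 peaks against 22, 24 and 21.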

How the data were processed

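ATAC-seq peak lists of 3 wild-type and 3 Utx-knockout samples were used. The deposited files give the chromosome, start and end of each peak as plain coordinates, with no score, called per sample; MACS2 and mm10 are named without a version, per the submitters' processing notes. File names carry a p threshold of 1e-11. Aligner, read filters and treatment of duplicates: not given in the sources used here. Peaks of the 6 samples sharing at least 1 bp were merged into regions, and a sample had a region where a peak of it overlapped. The width of a region in a sample is the summed width of that sample's peaks in it. Gene spans and promoter windows came from RefSeq GRCm38.p6, and all 43 genes were found there. Groups were compared with a two-sided exact permutation test over the 10 splits of 6 samples into 3 and 3. Lost, gained and separated counts carry no test and are read against the same share over all protein-coding genes. Lost and gained counts over promoter windows have no such share.

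The 43 genes, the pathway list and the marker lists were chosen with earlier results of these data known. Named in full are members with a lost or gained region or with separated peak numbers, Cxcr4, Cxcl12 and Cx3cr1, and pathway genes with at least 2 lost plus gained regions; members named beyond these were chosen after their values were seen. Region calling was tested on simulated lists, from which regions were dropped at random at the same rate in both genotypes. That setting cannot show false calls that arise from shorter knockout lists. Alternatives left out each sample, used windows of 10 or 50 kb, the widest 50% of peaks or the same number per sample, other rules for a region and a replicate block. Analyses ran in Python 3.11.15 with NumPy 2.4.6 and matplotlib 3.10.9.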

Additional observations from a re-analysis of the deposited data

How the results depend on the processing

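Depth is unknown, and 3 samples against 3 cannot give an exact permutation p under 0.1, so settings could change direction or size but no call. Of 210 recomputed main values, 6 differences changed sign and 28 counts moved by over 1.5 times. The other 176 are differences of unchanged sign, whose size could move, and counts within 1.5 times. They include the replicate block, where each difference equals its main value by construction and could not change. Of the values for single genes, 114 moved. The cause was not tested. The share of peaks near chemokine genes, -0.00468 percentage points, ranged from -0.0147 to 0.00292 when single samples were left out, was 0.000382 with 10 kb and -0.0101 with 50 kb windows, and -0.0291 with the widest 50% of peaks (exact permutation p = 0.1). At equal list length it was 0.000748, and the differences in peaks were 0.333 near all members, -6 near ligands (exact permutation p = 0.3, in place of 0.1) and 6.33 near receptors, with -6.14 kb of open bases in place of -13.5; chemokine regions then had 9 lost (4 ligand, 5 receptor) and 1 gained ligand region, 9 members had separated peak numbers and 19 pathway regions were lost. With 10 kb windows there were 11 lost regions (6 receptor) and 8 separated members, and differences of -19 peaks (-17.3 ligand, -1.67 receptor); with 50 kb windows 33 lost (23 receptor), 17 gained pathway regions, and differences of -52 peaks (-22.7 receptor), -28.9 kb and -0.104 in the ratio. The widest 50% of peaks gave differences of -17.7 peaks (-10.7 ligand, -7 receptor) and -1.67 promoters, 9 lost (3 ligand, 6 receptor), 3 gained, all 3 near receptors, and 20 lost pathway regions. With peaks asked for in only 2 of 3 samples, 30 regions were lost (14 ligand), with 48 lost and 23 gained near pathway genes. Without Cxcr4, 4 regions were gained, all 4 near receptors. Leaving out single samples gave 7 to 13 lost ligand regions (13 without wild-type sample 3), 0 to 1 gained ligand regions and 11 to 21 gained pathway regions (21 without knockout sample 1). The promoter count was not recomputed for other windows.

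The replicate block, a sign flip over same-numbered samples, left the difference of -29.7 peaks at an exact p of 0.25, the smallest 3 pairs allow. Deviations of same-numbered samples correlated at -0.0221, 0.00554 and 0.0190 over regions, and others at -0.0463 to 0.0427. The former lie within the range of the latter. Such values cannot decide whether samples were paired, and the labels do not say.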
